A study of Mus musculus with 6 samples.

Results

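Genes of the mitotic spindle and of the passage from G2 phase into mitosis were followed in Nestin-expressing cells of the neonatal mouse cerebellum after irradiation. The group is a list of 50 genes chosen by name for their roles in mitosis, and all 50 were found by gene symbol among the 19630 genes of the deposited table. Cells carrying Nes-CFP, a cyan fluorescent reporter of *Nes*, were taken by fluorescence sorting from papain-dissociated cerebella at postnatal day 5, and their polyadenylated RNA was sequenced. All mice were Swiss webster with the genotype Nes-CFP/+, and 3 libraries came from animals irradiated at postnatal day 1 and 3 from animals left without irradiation. The radiation dose is not given in the sources used here. Whether a group's libraries stem from separate animals is not stated either, so every p-value is set against the variation among these libraries, which could be technical.

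A cell that has copied its DNA makes the mitotic machinery anew in each cycle. Cyclins A and B bind the kinase Cdk1 and drive entry into mitosis, kinetochores tie chromosomes to the spindle built by motors and microtubule-binding proteins, and the spindle checkpoint holds back the anaphase-promoting complex (APC/C) until every chromosome is attached. The RNAs of these genes build up in G2 phase and mitosis, and in resting cells or after p53 activation they are repressed through the DREAM complex. DREAM and the activating complexes of B-Myb and FoxM1 act at a short promoter element, the cell cycle genes homology region (CHR), often beside CCAAT boxes bound by NF-Y. In the neonatal cerebellum such RNA marks cycling cells, chiefly progenitors of granule cells and of the Nestin-expressing lineages. In sorted bulk RNA, fewer cells in mitosis and less RNA per such cell cannot be told apart.

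The promoters are shown first because they are what these genes share outside the RNA measurements. RefSeq promoters (GRCm38.p6, the assembly that mm10 names) were at hand for 42 of the 50 genes, 45 promoters in all, each reaching from 250 bases before to 50 bases after the transcription start. *Ccna2*, *Cdc25c*, *Aurkb*, *Incenp*, *Kif20a*, *Tpx2*, *Smc4* and *Foxm1* were not matched. Of the 16 genes with a CHR and a CCAAT box between 110 bases before and 15 bases after the start, the 6 with the largest limma statistic are printed over those 125 bases, on the strand of the gene, with CHR and CCAAT letters in capitals (TTCAAA and ATTGG are the same elements on the other strand).
Ccnb2: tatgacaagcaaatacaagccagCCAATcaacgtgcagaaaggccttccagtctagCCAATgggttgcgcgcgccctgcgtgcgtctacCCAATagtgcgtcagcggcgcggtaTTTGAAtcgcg
Ube2c: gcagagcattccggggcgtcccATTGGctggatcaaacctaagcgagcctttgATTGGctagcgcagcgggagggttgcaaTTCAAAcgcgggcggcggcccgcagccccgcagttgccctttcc
Hmmr: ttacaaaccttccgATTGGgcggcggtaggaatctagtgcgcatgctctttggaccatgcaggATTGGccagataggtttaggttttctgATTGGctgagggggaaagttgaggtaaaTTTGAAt
Prc1: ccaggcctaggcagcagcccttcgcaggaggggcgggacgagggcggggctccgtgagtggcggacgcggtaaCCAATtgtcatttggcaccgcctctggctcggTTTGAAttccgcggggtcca
Kif11: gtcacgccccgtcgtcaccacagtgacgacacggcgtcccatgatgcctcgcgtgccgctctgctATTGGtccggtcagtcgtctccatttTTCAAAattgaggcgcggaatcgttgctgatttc
Cdc20: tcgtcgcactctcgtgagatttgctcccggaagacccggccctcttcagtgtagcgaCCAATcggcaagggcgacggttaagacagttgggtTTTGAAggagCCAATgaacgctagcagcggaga
The stretches lie at chr9:70421540-70421664 (minus strand) for *Ccnb2*, chr2:164769819-164769943 (plus) for *Ube2c*, chr11:40733423-40733547 (minus) for *Hmmr*, chr7:80294341-80294465 (plus) for *Prc1*, chr19:37376272-37376396 (plus) for *Kif11* and chr4:118437329-118437453 (minus) for *Cdc20*. In *Ccnb2*, encoding cyclin B2, CCAAT boxes begin at positions -87, -54 and -21 from the start and the CHR at position 5. In *Ube2c*, which encodes the ubiquitin-conjugating enzyme of the APC/C, they begin at -88 and -57, and the CHR at -29. In *Cdc20*, encoding an APC/C activator, the CHR begins at -18 between CCAAT boxes at -53 and -8.

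Searched on both strands as TTTGAA or TTCGAA, a CHR stood in 36 of the 45 promoters (80.0%), beside 19.2% of all 32851 promoters in the table and 13.4% of 14497 promoters of other genes tested here. With a start within 50 bases of the transcription start it stood in 31 of 45 (68.9%), beside 5.31% of all promoters. CCAAT stood in 36 of 45 (80.0%), beside 37.4% of all, and a CHR together with CCAAT in 32 of 45 (71.1%), beside 7.53%. E2F sites, searched as TTTCCCGC, TTTGGCGC, TTTCGCGC and TTTGCCGC on both strands, stood in 3 of 45 (6.67%), beside 2.27% of all and 3.66% of other genes tested. The motifs of the 3 kinds were counted apart, and a match is a run of letters, not a bound site. The genes were listed for their mitotic roles, and promoters of this class are known for these elements, so the shares describe the list. The 33 genes with a CHR in a promoter and the 9 without had alike median log2 fold changes after irradiation, 0.20 and 0.19.

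**Figure D1:**
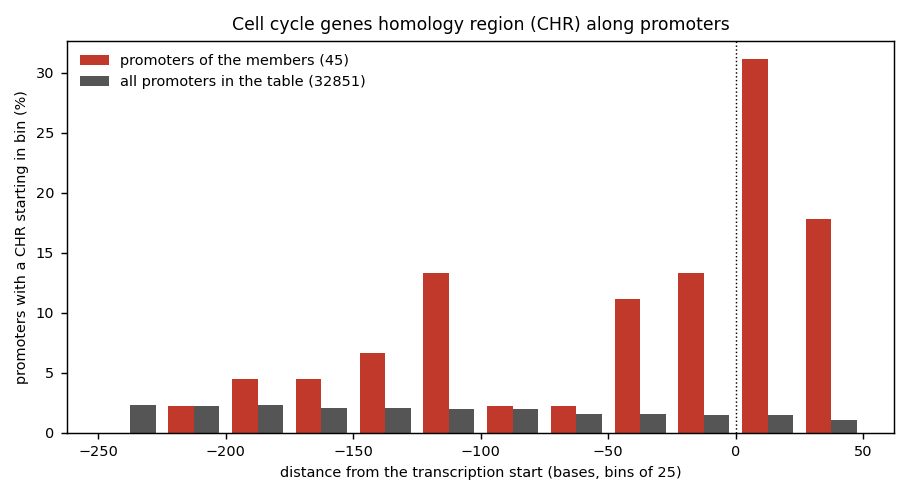
Share of promoters (y axis, percent) in which a CHR begins in each bin of 25 bases along the distance from the transcription start (x axis, bases), for 45 promoters of the mitotic genes (red) and all 32851 promoters (grey). The share among mitotic genes was highest in the first 25 bases after the start, at 31.1%.

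All levels are scaled counts, that is reads divided by the DESeq size factor the authors used, in libraries of 30986269 to 37067530 reads, and log2 fold changes are irradiated minus control with their standard error (SE) from limma-trend on log2(scaled count + 1). All 50 genes passed the filter of a mean scaled count of at least 10, and the lowest count of any of them in a library was 594 reads. Their mean levels ran from 691 to 28152 scaled counts with a median of 3686, where the median of the 16674 genes tested was 742. *Nes*, the gene behind the sort, had 10049, 8389 and 9101 scaled counts in controls and 13492, 11556 and 7461 after irradiation, and the groups overlapped. Levels were also taken per kilobase of exon, where each base in any annotated exon of a gene counted once. On that scale *Top2a* and *Ccna2* stood highest, at 3123 and 3022 scaled counts, followed by *Cdc20* at 2231 and *Mki67* at 2124. *Kif20b* (195), *Ndc80* (213) and *Anln* (236) stood lowest on that scale.

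The first question was whether the mitotic programme differed between sorted cells of the irradiated and the control cerebella. Fitted levels were higher in the irradiated group for 49 of the 50 genes and lower for *Cdc25b* alone, with a median log2 fold change of 0.20, a change of 14.6%, and a range from -0.12 to 0.37. With p adjusted by Benjamini-Hochberg and a threshold of 0.05, none passed limma-trend, where 0.054% of the 16674 genes tested did, and the smallest adjusted p in limma was 0.709, for *Ccnb2*. None of the 50 passed in the other tests either. The smallest adjusted p was 0.243 in DESeq2 (which called 0.6% of all genes), 0.696 in edgeR (0.048%), 0.275 in limma with replicate number as block (0.15%) and 0.290 in edgeR with that block (0.048%). At an unadjusted p below 0.05 and in the higher direction, limma gave 8 of the 50 genes beside 2.42% of all genes tested, DESeq2 gave 7 beside 2.39%, and edgeR gave 7 beside 2.39%. With the block, limma gave 16 beside 4.05% and edgeR 15 beside 3.84%. Over all genes tested the median log2 fold change was -0.0028, and 49.4% had a value above 0. The upper bounds of the 95% intervals reached at most 0.68 on the log2 scale, so a 2-fold increase lay outside the interval of each of the 50 genes.

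The 3 irradiated values all lay above the 3 control values in 21 of the 50 genes and below them in 0, where 4.83% and 4.01% of all genes tested did so. Libraries of the same replicate number in both groups were set against each other, and within these pairs 36 of the 50 genes were higher in the irradiated library every time, where 15.4% of all genes tested were. A further 12 were higher in 2 of the 3 pairs, *Ncapg* in 1, and *Cdc25b* in 0. By pair, 41, 47 and 45 genes were higher in pairs 1, 2 and 3, with median log2 differences of 0.17, 0.15 and 0.22. The genes share their libraries and are not independent of each other, and the list was drawn up with earlier results of these data known, so the counts describe these 6 libraries. The same shares of all genes tested belong beside the counts by role below, and the roles were not tested against each other.

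**Figure D2:**
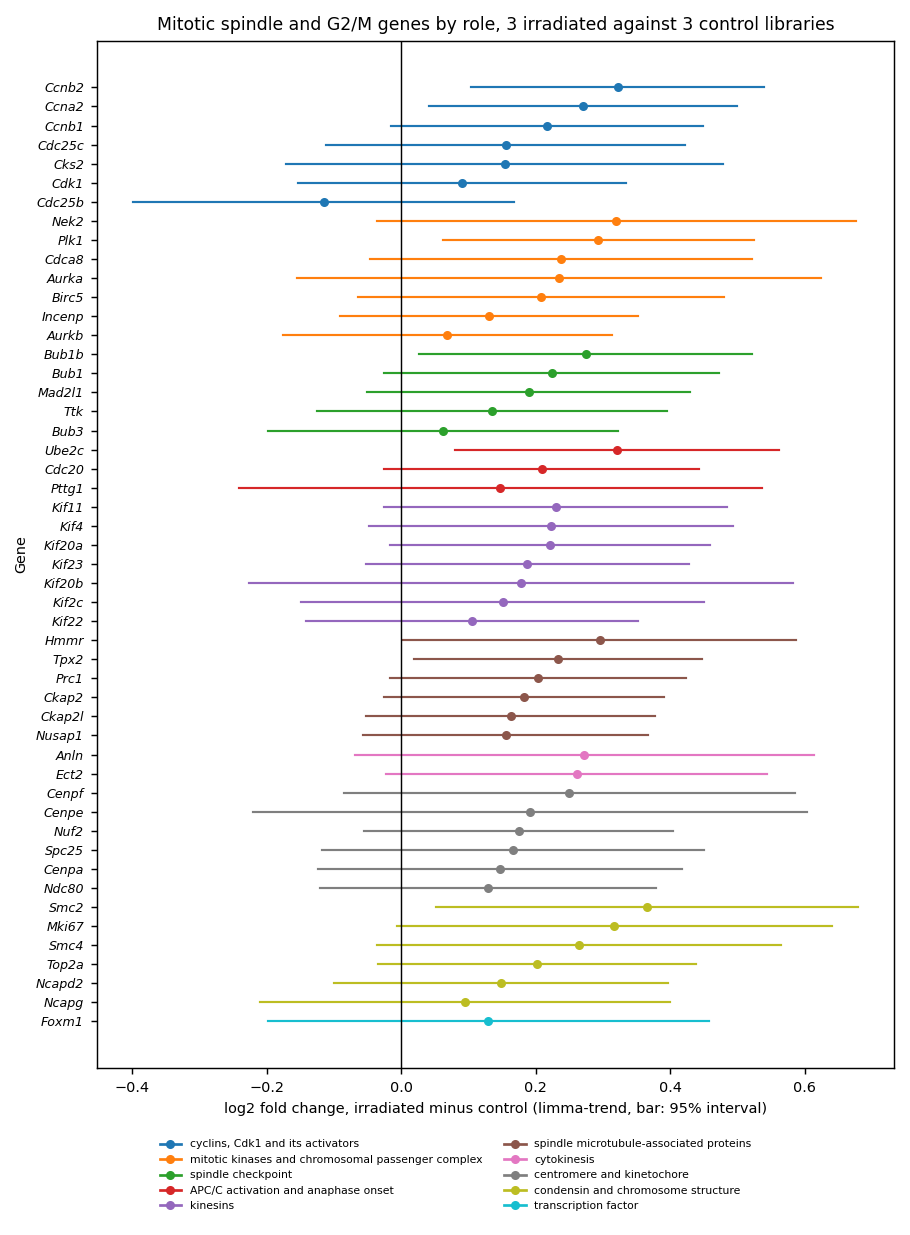
Log2 fold change, irradiated minus control, with its 95% interval from limma-trend (x axis), for each of the 50 genes (y axis) coloured by role, 3 libraries per group. All points but that of *Cdc25b* lie above 0, and 8 intervals lie wholly above 0.

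Among the 7 genes of cyclins, Cdk1 and its activators, 6 had a higher fitted level and 3 did not overlap between the groups. *Ccnb2* had 2577, 2435 and 2506 scaled counts in control replicates 1, 2 and 3, and 2956, 3234 and 3212 in the irradiated ones. Every irradiated library lay above every control, and the means were 2506 ± 70.9 and 3134 ± 154 (SD, n = 3) with a log2 fold change of 0.32 (SE 0.10, adjusted p in limma 0.709). *Ccna2*, encoding cyclin A2, which acts in S phase and G2, had 11353, 11029 and 11123 in controls and 12309, 13443 and 14781 after irradiation. The controls lay close together and below all irradiated libraries (log2 fold change 0.27 with SE 0.10, adjusted p in limma 0.975). *Ccnb1*, encoding cyclin B1, the main partner of Cdk1 in mitosis, had 4074, 4159 and 4369 in controls and 4549, 4733 and 5395 after irradiation, again without overlap (log2 fold change 0.22 with SE 0.10, adjusted p in limma 0.9999). *Cdk1* itself, the kinase, overlapped between the groups (log2 fold change 0.09), as did *Cks2*, encoding a small Cdk-binding subunit, at 0.15.

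The phosphatases that switch Cdk1 on had fold changes of opposite sign. *Cdc25b*, which starts Cdk1 activation at the entry into mitosis, had 5014, 5536 and 6269 in controls and 4492, 5371 and 5674 after irradiation. It was the lower value in the irradiated library of all 3 pairs, as in 14.4% of all genes tested, while the groups overlapped, and it did not pass (log2 fold change -0.12 with SE 0.13, adjusted p in limma 0.9999). *Cdc25c*, which amplifies that step, was higher in all 3 pairs, with a log2 fold change of 0.16 and a 95% interval of -0.11 to 0.42. The interval for *Cdc25b* was -0.40 to 0.17, so the intervals of both phosphatases overlap, and the difference between them was not tested. When a library was left out, *Cdc25b* ran from -0.19 (without control replicate 1) to -0.016 (without irradiated replicate 1). With a covariate for Y-linked genes *Cdc25b* stood at -0.35 and *Cdc25c* at 0.02.

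The 7 mitotic kinases and chromosomal passenger genes all had a higher fitted level, by 0.07 to 0.32 on the log2 scale. *Plk1*, the Polo-like kinase of spindle assembly and mitotic entry, had 2355, 2323 and 2382 in controls and 3086, 2949 and 2636 after irradiation. The groups did not overlap (log2 fold change 0.29 with SE 0.10, adjusted p in limma 0.903). *Nek2*, a centrosome kinase, had the highest fold change of the group (0.32, SE 0.16) with 1916, 1915 and 2438 in controls and 2163, 2551 and 3154 after irradiation. It was higher in each pair, though control replicate 3 lay above irradiated replicate 1. Its fold change was 0.18 without irradiated replicate 3 and 0.0082 with a covariate for Y-linked genes, a setting in which *Plk1* had the highest of the group (0.35). *Aurkb*, the kinase of the passenger complex that corrects wrong attachments, had the smallest (0.07, SE 0.11), with 2913, 2810 and 3154 against 2827, 3103 and 3395. Its partners *Cdca8*, the borealin gene, *Birc5*, encoding survivin, and *Incenp*, the scaffold, stood at 0.24, 0.21 and 0.13, and *Aurka*, the spindle pole kinase, at 0.23 (-0.11 with that covariate). *Cdca8* had 4355, 3873 and 4342 in controls and 4202, 5026 and 5684 after irradiation, with overlap between the groups.

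In the spindle checkpoint all 5 genes had a higher fitted level and 3 did not overlap between the groups. *Bub1b*, encoding BubR1, a subunit of the complex that inhibits the APC/C, had 5270, 4790 and 4294 in controls and 5531, 6210 and 5588 after irradiation. Every irradiated library lay above every control (log2 fold change 0.27 with SE 0.11, adjusted p in limma 0.9999). *Bub1* and *Mad2l1*, a checkpoint kinase and the Mad2 gene, were also without overlap, at 0.22 and 0.19, and *Ttk*, the Mps1 kinase gene, stood at 0.13. *Bub3*, a binding partner of Bub1 and BubR1, had 5510, 4931 and 5542 against 4999, 5403 and 6345, the smallest fold change of the 49 (0.06, SE 0.12), and it overlapped.

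The genes of the APC/C step had a higher fitted level in 3 of 3. *Ube2c* had 4030, 3825 and 3687 in controls and 4430, 4658 and 5367 after irradiation, without overlap (log2 fold change 0.32 with SE 0.11, adjusted p in limma 0.858). *Cdc20* had 3863, 3845 and 3871 in controls and 3995, 4615 and 4815 after irradiation, so the irradiated libraries lay above a narrow control range (log2 fold change 0.21). *Pttg1*, encoding securin, which the APC/C destroys to free separase, had 2369, 2051 and 2681 against 2225, 2339 and 3404. It overlapped and was lower in pair 1 (log2 fold change 0.15, SE 0.17).

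**Figure D3:**
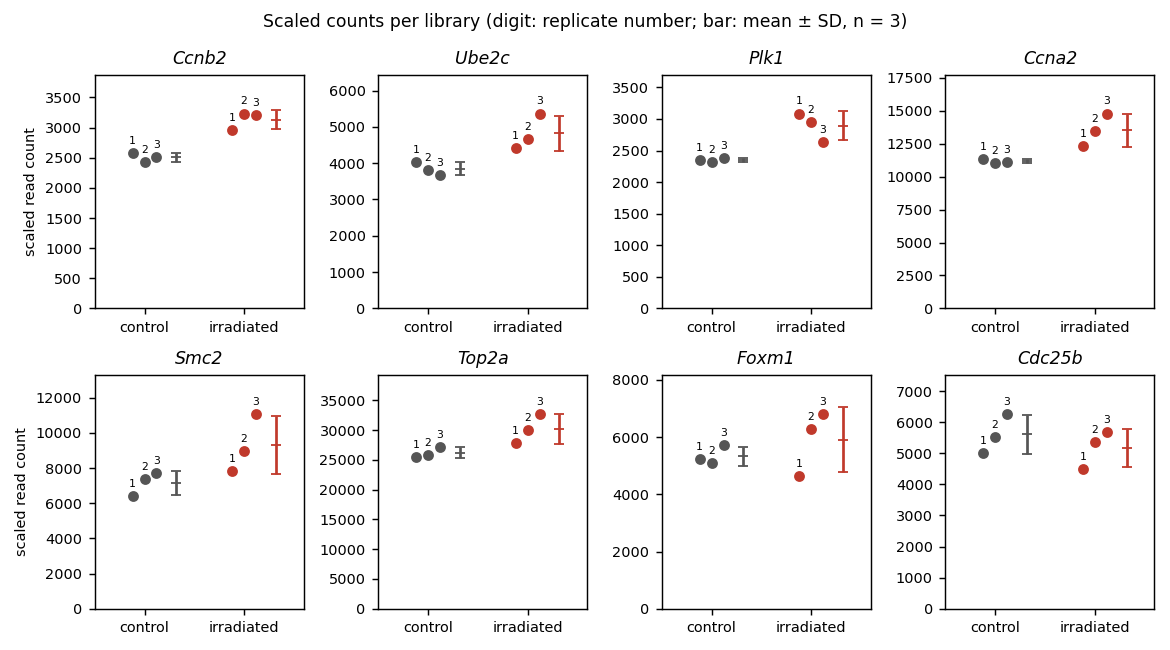
Scaled read count (y axis, from 0) of 8 genes in each library, control in grey and irradiated in red, with the replicate number at each point and the mean ± SD (n = 3) beside them. In *Ccnb2*, *Ube2c*, *Plk1*, *Ccna2*, *Smc2* and *Top2a* every irradiated library lies above every control, and in *Foxm1* and *Cdc25b* the groups overlap.

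All 6 genes of spindle microtubule-associated proteins had a higher fitted level, and in all 6 the groups did not overlap and every pair was higher. Of all genes tested, 4.83% were higher without overlap and 15.4% were higher in every pair. *Tpx2*, the Aurora A activator that starts microtubules around chromosomes, had 8507, 8520 and 7954 in controls and 9253, 10321 and 9809 after irradiation (log2 fold change 0.23 with SE 0.10, adjusted p in limma 0.9999). *Hmmr*, encoding a spindle pole protein, had 1639, 2148 and 2192 in controls, with replicate 1 low, and 2489, 2398 and 2390 after irradiation (log2 fold change 0.30 with SE 0.13, adjusted p in limma 0.9999), and its fold change without control replicate 1 was 0.16. *Nusap1*, which binds and stabilises spindle microtubules, had the smallest fold change of the group (0.16, SE 0.09), with 5387, 5593 and 5040 against 6100, 5721 and 6009. *Prc1*, the bundler of the spindle midzone, and the microtubule-associated genes *Ckap2* and *Ckap2l* stood at 0.20, 0.18 and 0.16.

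The 7 kinesin genes had a higher fitted level by 0.11 to 0.23, and 2 of them, *Kif20a* and *Kif23*, both motors of cytokinesis, did not overlap. *Kif11*, the motor that pushes spindle poles apart, had 5217, 6693 and 6022 in controls and 6977, 7262 and 6688 after irradiation. Irradiated replicate 3 lay just under control replicate 2 (log2 fold change 0.23, SE 0.11). *Kif22*, a chromosome arm motor, had the smallest change of the kinesins (0.11, SE 0.11), with 3482, 3415 and 3734 against 3447, 3768 and 4255. The cytokinesis genes *Anln*, encoding the actin-binding anillin, and *Ect2*, encoding an activator of RhoA at the furrow, were at 0.27 and 0.26. *Anln* had 1546, 2170 and 2129 in controls and 2583, 2332 and 2090 after irradiation, and *Ect2* 2734, 3450 and 3298 against 4025, 3978 and 3343. In both, control replicate 1 was the lowest library and irradiated replicate 3 lay within the control range. Without control replicate 1 the fold change of *Anln* was 0.11.

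All 6 centromere and kinetochore genes had a higher fitted level, and in *Nuf2*, of the Ndc80 complex, the groups did not overlap (log2 fold change 0.17). *Cenpf*, encoding a large kinetochore protein that accumulates in G2, had 6069, 9223 and 7789 in controls and 8566, 9774 and 8758 after irradiation (log2 fold change 0.25, SE 0.15, and 0.0893 without control replicate 1). *Ndc80*, the microtubule-binding core subunit, had the smallest change (0.13, SE 0.11), with 1251, 1278 and 1428 against 1442, 1376 and 1506. The centromeric histone gene *Cenpa*, the motor gene *Cenpe* and the Ndc80 complex gene *Spc25* stood at 0.15, 0.19 and 0.17, with overlap. The spread of *Cenpe* was wide, with a control replicate 1 of 2242 beside 3551 and 3246, and its fold change was -0.0081 without that library.

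Among the 6 genes of condensin and chromosome structure, *Smc2*, the ATPase shared by both condensins, had the largest fold change of all 50 (0.37, SE 0.14, limma adjusted p = 0.987). It had 6417, 7377 and 7716 in controls and 7833, 8997 and 11086 after irradiation, without overlap, with irradiated replicate 3 far above the rest. Without that library its fold change was 0.23, below that of *Plk1* (0.36), and with the Y-linked covariate it was 0.12, below that of *Bub1b* (0.42). *Top2a*, encoding the topoisomerase that untangles sister chromatids, had 25428, 25833 and 27218 in controls and 27771, 29944 and 32719 after irradiation, also without overlap (log2 fold change 0.20, SE 0.10). *Mki67*, encoding Ki-67, which coats mitotic chromosomes, had 15362, 21921 and 20088 against 21305, 25092 and 24448, with control replicate 1 low (log2 fold change 0.32 with SE 0.14, adjusted p in limma 0.9999). Without control replicate 1 it stood at 0.17. *Ncapg*, a condensin I subunit, had 2431, 3201 and 3386 against 3118, 3049 and 3376 and was higher in pair 1 alone (0.10, SE 0.14). *Foxm1*, the forkhead factor that activates many of the genes above, had 5217, 5080 and 5709 in controls and 4622, 6292 and 6810 after irradiation. It was lower in pair 1 and higher in pairs 2 and 3 (log2 fold change 0.13 with SE 0.15, adjusted p in limma 0.9999).

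**Figure D4:**
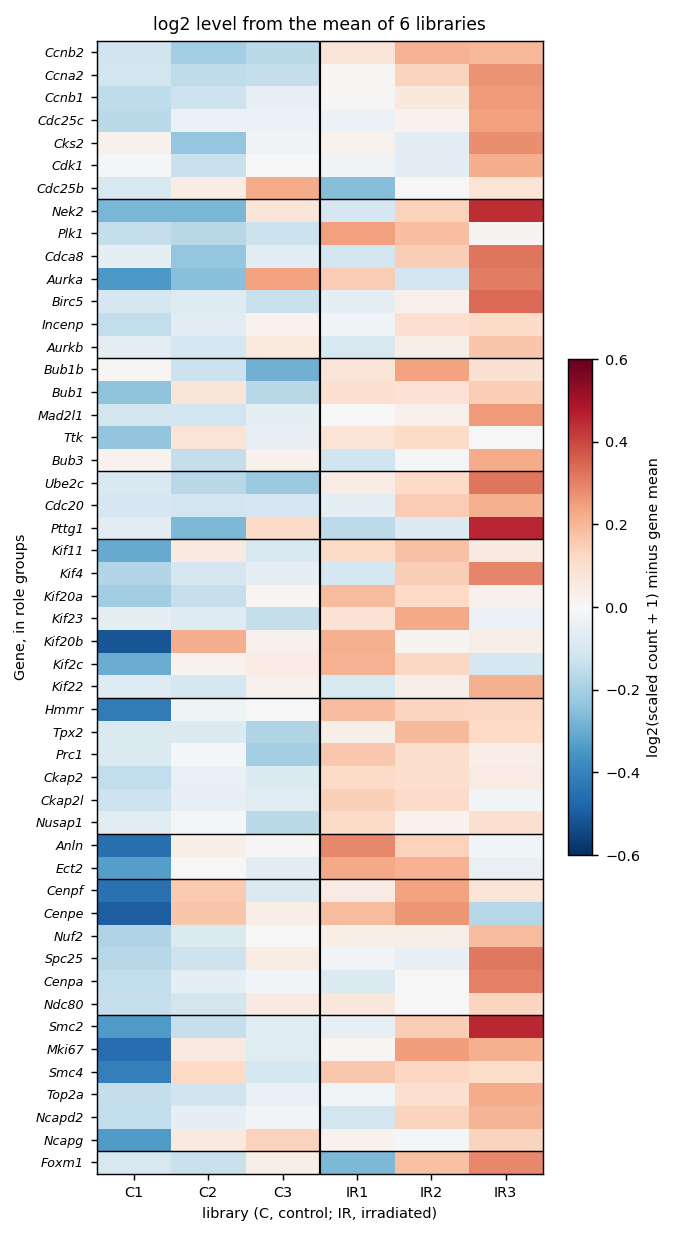
Level of each gene (rows, in role groups) in each library (columns), as log2(scaled count + 1) minus the mean of the gene over the 6 libraries (colour). The control columns are mostly blue and the irradiated ones mostly red, with control replicate 1 the lowest library for 28 genes and irradiated replicate 3 the highest for 27.

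The libraries of a group were not alike. The median over the 50 genes of the log2 level, taken from each gene's mean over the 6 libraries, was -0.15, -0.09 and -0.05 in control replicates 1, 2 and 3, and 0.03, 0.11 and 0.18 in irradiated replicates 1, 2 and 3. Their summed scaled counts were 221400, 242140 and 242600 in controls and 255510, 273670 and 286260 after irradiation, without overlap. Without control replicate 1 the median log2 fold change of the 50 genes was 0.15 and 46 were higher, and without irradiated replicate 3 it was 0.16 and 47 were higher. Sex-linked transcripts differed too. The mean log2 level of 4 Y-linked genes (*Ddx3y*, *Eif2s3y*, *Kdm5d* and *Uty*) was 8.39, 9.09 and 10.2 in controls and 9.87, 10.2 and 10.9 after irradiation, and with that level as a covariate limma called 0.168% of all genes and none of the 50, the median log2 fold change of the 50 genes was 0.10 and 40 were higher. Its part in the result was not tested otherwise.

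Other genes of the cycle were read in the same fit. Of 70 further mitotic genes outside the list, fitted levels were higher in 64 and lower in 6, none was called, and the median was 0.13. Without overlap 9 were higher and 0 lower, beside 4.83% and 4.01% of all genes tested. *Psrc1*, encoding a spindle protein, had the largest fold change among them, with 1617, 1840 and 1573 in controls and 2109, 2309 and 2034 after irradiation (log2 fold change 0.36 with SE 0.11, adjusted p in limma 0.793). The 33 genes of the APC/C, separase and cohesin had 27 higher, 6 lower and a median of 0.07, none called, with 1 higher without overlap. S phase genes had 26 of 43 higher, 17 lower, a median of 0.03 and none called, with 2 higher without overlap. Their largest fold change was that of the thymidylate synthase gene *Tyms*, whose mean was 1626 ± 13.6 in controls and 2091 ± 366 (SD, n = 3) after irradiation (log2 fold change 0.35, adjusted p in limma 0.987). By library, the S phase list stood at -0.06, -0.07 and 0.04 in controls and at -0.09, -0.06 and 0.23 after irradiation, so that irradiated replicate 3 alone stood above all controls. The largest negative fold changes were -0.09 for *Spag5*, encoding the spindle protein astrin, -0.12 for *Mau2*, a cohesin loader gene, and -0.18 for *Cdc7*, encoding an origin-firing kinase. The genes with the highest counts of the 3 lists, *Lmnb1* (lamin B1), *Rad21* (a cohesin subunit) and *Rrm1* (a ribonucleotide reductase subunit), stood at 0.20, 0.18 and 0.10, and *Ube2s*, another APC/C ubiquitin-conjugating enzyme, at 0.23. Whether the lists differ from the 50 genes was not tested.

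Among 45 regulators of G2/M transcription and entry, 28 were higher and 17 lower, with a median of 0.02, and *Cdkn1a* alone was called in limma and in edgeR. *Cdkn1a*, encoding the inhibitor p21, through which p53 represses genes of the mitotic class, rose from 289, 235 and 402 in controls to 1470, 1843 and 1831 after irradiation (log2 fold change 2.498 with SE 0.20, adjusted p in limma 0.00372). The 49 mitotic genes with a higher fitted level were thus measured in the same libraries in which *Cdkn1a* was higher. *Ccng1*, encoding the p53 target cyclin G1, was called as well in DESeq2 (adjusted p 0.000148), in limma with the block (0.0442) and in limma with the Y-linked covariate (0.0485). It had 1832, 1866 and 1618 in controls and 3900, 3457 and 2549 after irradiation, without overlap (log2 fold change 0.88 with SE 0.16, adjusted p in limma 0.169). *Gadd45g*, a stress gene that can inhibit Cdk1, had the largest negative value (-0.27) among those with a mean of at least 50, and *Rbbp4*, a DREAM subunit gene with the highest count of this list, stood at 0.10. Of the 10 G1 cyclins and kinases, 8 were higher and none was called in limma. *Ccnd1*, encoding cyclin D1, stood at 9215, 6106 and 6487 in controls and 11322, 13596 and 13568 after irradiation, without overlap (log2 fold change 0.84 with SE 0.16, adjusted p in limma 0.189), and passed in DESeq2 (adjusted p = 0.00158). *Ccnd2*, encoding cyclin D2, stood at 0.11 and *Cdk2*, the kinase of the passage into S phase, at -0.12.

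Markers of the cell types in the sort were measured beside the mitotic genes. For Bergmann glia and astrocytes, 10 of 11 genes had a fold change below 0. Their summed scaled counts ran from 668800 to 829220 in controls and from 493230 to 759920 after irradiation. By library their median log2 level was 0.29, -0.01 and 0.18 in controls and 0.12, -0.19 and -0.44 after irradiation. It was highest in control replicate 1, where the mitotic genes were lowest, and lowest in irradiated replicate 3, where they were highest. Between these extremes the order was not reversed throughout, as control replicate 2 lay below control replicate 3 and irradiated replicate 1 in both lists. The medians of microglial genes ran from -0.80 in control replicate 1, their lowest, to 0.41 in irradiated replicate 3, their highest. Those of Purkinje cell genes ran likewise from -0.36 to 0.50. No other marker list shared both of these extremes with the mitotic genes. The 9 granule cell progenitor markers, 5 higher and 4 lower, summed to 67080 to 70409 in controls and 64388 to 71930 after irradiation, and the 7 granule neuron genes, 4 higher and 3 lower, to 42049 to 50059 and 38559 to 50110. *Atoh1*, the defining factor of granule cell progenitors, had 209, 144 and 324 in controls and 283, 483 and 681 after irradiation, and its groups overlapped. Its log2 fold change was 1.08 (SE 0.36, adjusted p in limma 0.837), and it was higher in every pair, as 15.4% of all genes tested were. It was highest in irradiated replicate 3 as the mitotic genes were, and so were *Mycn*, *Neurod1* and *Pax6* (log2 fold changes 0.03, 0.32 and 0.03). *Gli1* was highest in irradiated replicate 2, with a log2 fold change of 0.25. The 4 lower progenitor markers, *Barhl1*, *Zic1*, *Zic2* and *Meis1* (log2 fold changes -0.08, -0.05, -0.03 and -0.15), were each highest in a control library. All 9 GABAergic interneuron genes had a fold change below 0 and summed to 10270 to 15636 and 11704 to 11904. Oligodendrocyte lineage genes, 4 of 7 higher, summed to 24265 to 37292 and 24980 to 42017, and Purkinje cell genes, 5 of 7 higher, to 5987 to 8162 and 7230 to 8779. Endothelial and pericyte genes, 8 of 9 lower, summed to 5387 to 5851 and 3617 to 5255, microglial genes, 6 of 8 higher, to 1415 to 3452 and 2099 to 3424, and erythroid genes, 4 of 4 lower, to 484 to 840 and 317 to 391. Endothelial and erythroid sums did not overlap between the groups. None of these markers was called in limma or edgeR. DESeq2 called *Gpr37l1* of the glial list, *Pax2* and *Slc6a5* of the interneuron list and *Hbb-bs* of the erythroid list, at log2 fold changes of -0.60, -1.03, -1.57 and -0.81 (adjusted p in DESeq2 0.00641, 0.00169, 0.0265 and 0.0242), and 1 interneuron gene, *Pax2*, was called in limma with the block. The granule neuron marker *Gabra6* and the erythroid marker *Hba-a2* were listed too but were not found by symbol in the deposited table, so they have no values here. No marker found in the table was at 0 in all libraries of a group. The part of these cell types in the levels of the mitotic genes was not tested.

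**Figure D5:**
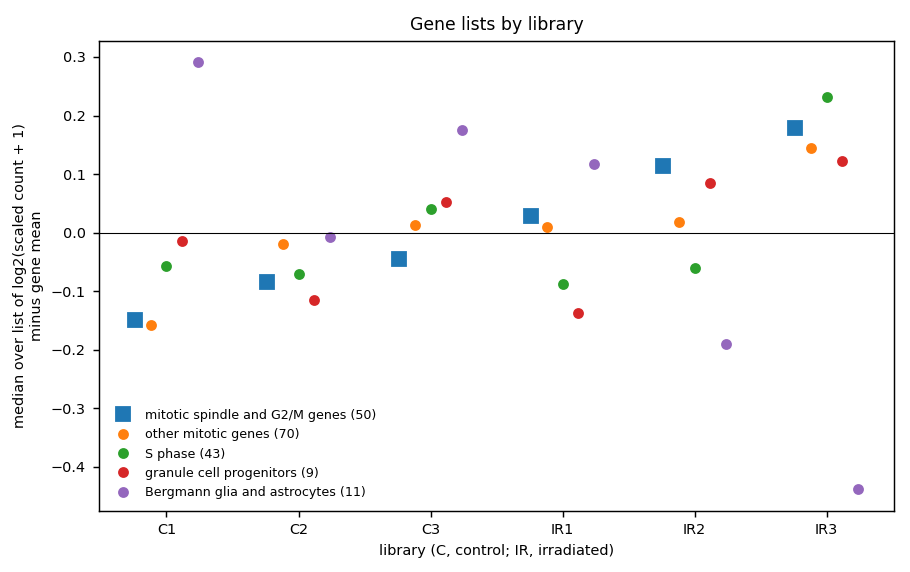
Median over each gene list of log2(scaled count + 1) minus the gene mean (y axis), in each library (x axis), for the 50 mitotic spindle and G2/M genes (squares) and 4 other lists (circles, number of genes in brackets). The squares lie higher in every irradiated than in every control library, and the purple circles of glial genes are highest in control replicate 1 (0.29) and lowest in irradiated replicate 3 (-0.44).

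Of the 50 genes, 22 overlap an annotated gene on the opposite strand in GENCODE release M21, such as *Ube2c* with *Tnnc2* and *Kif20a* with *Cdc23*. Use of strand in the counting is not given in the sources used here, and reads from such partners cannot be told apart. In GRCm38 coordinates *Ccnb2* lies on chromosome 9 from 70407692 to 70421547 (minus strand), *Ube2c* on chromosome 2 from 164769898 to 164778822 (plus strand), *Smc2* on chromosome 4 from 52439243 to 52488260 (plus strand), and *Cdc25b* on chromosome 2 from 131186949 to 131198497 (plus strand).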

How the data were processed

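RNA of sorted Nes-CFP positive cells was sequenced from poly(A)-selected libraries, 3 irradiated and 3 control, per the labels' protocols. HTSeq, DESeq and mm10 are named, per the submitters' processing notes, and the aligner is not given in the sources used here. Each deposited signal value is reads per gene over a DESeq size factor (0.953 to 1.17, worked out from the values), to which the authors added 1. With the 1 taken off, all values (100%) were whole reads within 0.001, and every gene listed had at least 15 reads in all, so genes with fewer are not analysed here. Gene IDs matched GENCODE M21 for 19542 genes and not for 88, and 25 symbols turned into dates were restored by ID.

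Groups were compared with limma-trend, two-sided (version 3.58.1 in R 4.3.3), on log2(scaled count + 1) in the 16674 genes with a mean of at least 10, with Benjamini-Hochberg adjustment over all of them, called below 0.05. Folds on this scale are slightly understated at low counts. DESeq2 1.42.0 and edgeR 4.0.16 on recovered reads were alternatives, and the code was tested on simulated data. Genes are named by role: the member with the highest level, the largest and the smallest change in each role, the 10 with the largest statistic, *Cdkn1a*, and, in lists outside the members, called genes, the highest count and the largest changes; others were named after their values were seen. Largest and smallest refer to limma with all 6 libraries. The members and lists were chosen with earlier results of these data known.

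Same-numbered control and irradiated libraries deviated together from their group means (correlations across genes of 0.305, 0.151 and 0.451 for numbers 1, 2 and 3), which was read as pairing by number. Libraries of unlike number had correlations from -0.342 (control replicate 3 with irradiated replicate 1) to 0.0503 (control replicate 1 with irradiated replicate 2). Deviations were taken within each group of 3, so these correlations are not independent of each other. No label says what a shared number stands for, so the pairing rests on the values.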

Additional observations from a re-analysis of the deposited data

How the results depend on the processing

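Under all 17 alternatives none of the 50 mitotic genes was called in limma, edgeR or DESeq2. With the replicate block the pairing changed no call among them (0 called, median log2 fold change 0.20). The count of genes called over the whole table was 9, and it was 25 with the replicate block, 100 with DESeq2 and 28 with the Y-linked covariate, and 1 to 29 when a library was left out. The median log2 fold change of the 50 genes was 0.0982 with the Y-linked covariate and 0.153 to 0.222 without a library in turn. With that covariate 9 of the 50 turned sign, to -0.0584 for *Aurkb*, -0.0441 for *Bub3*, -0.124 for *Pttg1*, -0.0252 for *Kif22*, -0.147 for *Ncapg*, -0.0712 for *Foxm1*, -0.1055 for *Aurka*, -0.0332 for *Spc25* and -0.0184 for *Cenpa*, as did *Rad21* (-0.0030) and *Ube2s* (-0.0552) outside them. In all, 35 of the 50 then moved by over 1.5 times or turned sign. Without control replicate 1 that held for 14 and without irradiated replicate 3 for 23, and for 5 to 10 without each of the other libraries. Without a library in turn the log2 fold change ran from -0.0338 (without irradiated replicate 3) to 0.1382 for *Bub3*, from -0.0448 (without irradiated replicate 3) to 0.2619 for *Pttg1*, and from -0.0506 (without control replicate 1) to 0.1882 for *Ncapg*. *Kif20b* (-0.0331) and *Cenpe* (-0.0081) also turned without control replicate 1. The cause was not tested. The number of the 50 genes without overlap between groups, 21 with all libraries, was 21 to 31, and the number higher in every remaining pair, 36 with all, was 37 to 44 when a library was left out, since fewer values then have to be in order. With total count scaling these numbers were 16 and 35. The shares over all genes tested were worked out only for all 6 libraries with the main scaling. The counts with a library left out or with total count scaling can therefore not be set against them. With TMM or total count scaling the median was 0.19 and 49 genes were higher. With 3 libraries a group the median SE of 0.11 on the log2 scale limits what could pass.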

Other observations

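The exon length of the mitotic genes was set against their level in each library. Each base in any annotated exon of a gene was counted once, so this length can exceed that of the RNA made. Across the 50 genes, which are not independent replicates, the deviation of a gene from its mean over the 6 libraries correlated with the log2 of its exon length by -0.46 in control replicate 1, 0.56 in control replicate 2, -0.002 in control replicate 3, and 0.09, 0.33 and -0.28 in irradiated replicates 1, 2 and 3. Over the 16623 genes tested with an annotated length the same values were -0.07, 0.12, 0.01, -0.04, 0.14 and -0.12. *Kif20b*, *Cenpe*, *Cenpf*, *Anln* and *Mki67*, chosen after their values were seen, were among the 28 of the 50 genes that were lowest in control replicate 1. *Kif20b* had 941 scaled counts there, beside 1561 and 1366 in the other controls and 1557, 1359 and 1373 after irradiation. Not all genes followed their exon length. *Aurka*, with 2531 annotated exon bases, was lowest in control replicate 1 (1409, beside 1501 and 2117). *Prc1*, with 8225 annotated exon bases, had 7798 there, beside 8196 and 7176. The lengths of the RNAs present were not measured. The points share their libraries and the part of transcript length in the comparison was not tested.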
